A study of Mus musculus with 186 samples.

Results

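The activity of CpG-mutated CpG island (CGI) promoters was compared between wild-type (WT) mouse embryonic stem cells (ESCs) and cells without DNA methyltransferases (TKO). The samples are those of the HKGmutlib3 reporter library, 12 of the 186 samples of the series. They comprise 3 WT and 3 TKO replicates, each with an RNA and a genomic DNA sample of the promoter barcodes, so that every replicate gives 1 activity per construct. The library holds 12 promoters, each unmutated (0%) and with 25, 50, 75 or 100% of its non-motif CpGs mutated, which makes 60 constructs. Non-motif CpGs are those that the study placed outside the motifs of transcription factors with a ChIP-seq peak at that promoter. It changed their C to A. The paper does not exclude that some of them lie in motifs it had not verified. At each density the CpGs were drawn at random anew, so the mutations of a promoter are not nested.

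The WT cells are the parental ESC line, with wild-type Dnmt genes and a cassette exchange site in the beta-globin locus. TKO cells were made from this line with CRISPR-Cas9 and lack Dnmt1, Dnmt3a and Dnmt3b. Both lines were grown with serum and LIF, and both received the same library at the same silent locus. Cells carrying a construct were selected before RNA and DNA were isolated, and no other treatment of them is described. A single knockout line is labelled. Nothing in the labels tells if replicates came from different cultures, and the p-values below cover only the spread among these samples, part or all of which may be technical. No endogenous marker genes are measured in a barcode assay, and neither the ESC identity nor the loss of the Dnmt genes can be checked in these values.

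CGIs are stretches of high CpG density that cover most mammalian promoters, in particular those of genes used by every cell. They normally stay free of DNA methylation, whereas isolated CpGs elsewhere are mostly methylated. Dnmt3a and Dnmt3b place methyl groups on unmethylated CpGs and Dnmt1 copies them after replication, so that a cell without all of them cannot keep CpG methylation. A promoter that loses CpGs can therefore lose activity together with gaining methylation, and in cells without the enzymes it cannot gain methylation. The comparison asks whether the activity of CpG-mutated promoters depends on the methyltransferases.

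Shown first are the bases just upstream of the annotated start of 5 promoters on which the results below turn, 5′ to 3′ on the strand of the gene, with every CpG in capitals. They were read from the mm9 genome and end at the base before the start in the GENCODE M1 annotation, so all lie outside the transcript. Nvl encodes an AAA ATPase of ribosome assembly, and its window of 200 bases on the minus strand, chr1:183074289-183074488, holds 19 CpGs. Snupn encodes snurportin, the import adaptor of spliceosomal snRNPs, and its window (plus strand, chr9:56798485-56798684) holds 17. Usf1 encodes a basic helix-loop-helix transcription factor that binds E-boxes (plus strand, chr1:173341244-173341443, 15 CpGs). Fam165b encodes a small membrane protein (plus strand, chr16:92301331-92301530, 15 CpGs). Rrm1, the large subunit of ribonucleotide reductase, has only 7 CpGs in the 199 bases of its insert that precede the start (plus strand, chr7:109590010-109590208). Which of these CpGs each mutant lost is not analysed here.
Nvl: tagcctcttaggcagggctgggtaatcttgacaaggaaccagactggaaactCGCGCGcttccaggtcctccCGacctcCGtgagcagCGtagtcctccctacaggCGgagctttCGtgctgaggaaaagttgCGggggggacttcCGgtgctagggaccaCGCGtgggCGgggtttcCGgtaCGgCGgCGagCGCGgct
Snupn: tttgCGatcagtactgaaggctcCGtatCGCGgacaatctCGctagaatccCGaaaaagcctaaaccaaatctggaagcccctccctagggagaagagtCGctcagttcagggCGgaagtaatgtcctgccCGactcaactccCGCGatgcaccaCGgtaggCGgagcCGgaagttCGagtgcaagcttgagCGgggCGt
Usf1: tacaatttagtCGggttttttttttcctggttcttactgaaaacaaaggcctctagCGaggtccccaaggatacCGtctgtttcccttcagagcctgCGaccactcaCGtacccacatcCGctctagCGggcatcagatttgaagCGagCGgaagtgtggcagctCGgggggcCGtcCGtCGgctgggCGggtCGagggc
Fam165b: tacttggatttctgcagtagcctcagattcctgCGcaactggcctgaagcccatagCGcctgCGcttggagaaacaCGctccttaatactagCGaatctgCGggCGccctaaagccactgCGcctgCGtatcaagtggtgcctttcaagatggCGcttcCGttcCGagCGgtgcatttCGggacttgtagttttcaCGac
Rrm1: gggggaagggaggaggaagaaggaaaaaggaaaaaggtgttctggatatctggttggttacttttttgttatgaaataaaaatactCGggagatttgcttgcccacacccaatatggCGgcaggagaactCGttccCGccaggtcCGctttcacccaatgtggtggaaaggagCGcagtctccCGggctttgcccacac

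All 12 inserts span the annotated start of their gene, with 184 to 404 bases upstream of it and the rest in the transcribed region, and are 436 to 568 bases long in mm9. The other 7 are those of Cops8 (chr1:92499747-92500254, plus strand), Snrpb2 (chr2:142888472-142889011, plus), Mul1 (chr4:137990295-137990833, plus), Nsmce1 (chr7:132634796-132635323, minus), Tusc3 (chr8:40068715-40069150, plus), Armc7 (chr11:115336697-115337238, plus) and Napg (chr18:63137229-63137761, plus). Unmutated, the inserts hold between 28 (Fam165b) and 52 (Cops8) CpGs, and 100% mutated between 2 (Mul1 and Nsmce1) and 10 (Snrpb2).

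Activity was read from barcodes in the transcript as RNA reads over DNA reads, averaged geometrically over all barcodes of the construct, and is given here on the log2 scale. The authors added 0.05 to each barcode's ratio, so that no activity can fall below -4.32, and constructs within 0.5 of this lowest value are called inactive here. The RNA and DNA samples were scaled to each other within a replicate, so a shift that all constructs share cannot be calibrated between the cell lines. Between 2169 and 2341 barcodes lay behind a WT replicate, with a median of 19.5 to 24 per construct, and between 710 and 756 behind a TKO replicate, with a median of 8 to 9. TKO values thus rest on far fewer barcodes, and whether they had fewer integrations was not tested. Read depth is unknown from these values, and 9 of 153 deposited TKO activities but 0 of 171 WT activities sat at the lowest value itself (within 0.001 on the log2 scale). Of the 60 constructs, 51 had 3 or more barcodes in 2 or more replicates of both lines and could be compared. The 9 others were the 0% constructs of Mul1 and Tusc3, the 25% construct of Usf1, 50% and 100% of Armc7, 75% of Snrpb2, and 25%, 75% and 100% of Snupn. Over the constructs measured in all replicates, Pearson's r was 0.97 to 0.99 between WT replicates, 0.98 to 0.99 between TKO replicates and 0.94 to 0.97 between the lines (47 constructs, which share promoters and scaling).

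Mutated promoters were less active than unmutated ones in TKO as in WT cells. The mean log2 activity over the 9 promoters with a 0% construct in every replicate was -0.48 ± 0.02 in WT and -0.46 ± 0.06 in TKO cells (SD, n = 3). At 100% mutated it was -3.91 ± 0.06 in WT and -4.01 ± 0.06 in TKO cells (9 promoters, n = 3). These are not the same 9 promoters. Armc7, Snupn and Usf1 are in the 0% set alone, and Fam165b, Mul1 and Tusc3 in the 100% set alone. Over the 6 promoters in both sets, the loss from 0% to 100% was -3.67 ± 0.12 in WT and -4.00 ± 0.12 in TKO cells (SD, n = 3). Of the 10 fully mutated constructs compared, 8 were inactive in WT and 8 in TKO cells, and their means ranged from -4.21 to -3.74 in WT and from -4.30 to -3.56 in TKO cells. The unmutated constructs ranged from -2.43 to 1.24 in WT and from -2.30 to 1.10 in TKO cells. For the 8 promoters with both ends measured in both lines, the 100% construct kept 2.95% to 31.7% of the activity of its 0% construct in WT and 2.65% to 27.2% in TKO cells. These percentages are bounded from below, because no activity can fall below the lowest value. The bound is higher for promoters with a less active 0% construct. Rrm1 with 75% mutated, at the lowest value in every TKO replicate, still kept 24.6% by this measure. Similar percentages in the lines are thus no sign of an equal loss.

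Step by step, the means of the 2 lines differed by 0.30 or less on the log2 scale. At 25% mutated, TKO replicates averaged -1.62, -1.57 and -1.61 over 10 promoters and WT replicates -1.92, -1.78 and -1.77. At 50% mutated, TKO replicates averaged -2.06, -2.00 and -1.89 over 11 promoters and WT replicates -2.17, -2.30 and -2.36. All TKO replicates were above all WT replicates at both steps, by 0.23 (exact 90% interval 0.15 to 0.35) and by 0.30 (0.11 to 0.48). The exact permutation test of 3 against 3 replicates, two-sided, gave p = 0.1 at both, which is the smallest p of its 20 splits, and an adjusted p of 0.25 over the 5 steps. At 0%, 75% and 100% the replicates of the lines overlapped, with differences of 0.01 (-0.08 to 0.07; exact p = 0.8), -0.03 (-0.12 to 0.10; exact p = 0.6) and -0.10 (-0.22 to 0.02; exact p = 0.2). When each replicate was instead centred on its median construct, TKO moved down by 0.26 against WT, and the differences at 25% and 50% became -0.04 and 0.03, while those at 0%, 75% and 100% became -0.25, -0.29 and -0.36. The sign of the difference thus turned with the scaling at 0% and 25%, and its size changed with the scaling at every step. Centring shifts all constructs of a replicate equally on the log2 scale, so it leaves the differences between steps unchanged. A scaling of reads would change them, since it moves constructs near the lowest value less.

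Activity was next taken relative to the 0% construct of the same promoter and replicate. This removes a log2 shift equal in all constructs. It does not remove a scaling of reads, which moves constructs near the lowest value less. On this scale the loss at 25% was -0.78 ± 0.15 in WT and -0.76 ± 0.15 in TKO cells (7 promoters, n = 3). At 50% it was -1.71 ± 0.15 in WT and -1.37 ± 0.05 in TKO cells (8 promoters), a difference of 0.33 (exact 90% interval 0.15 to 0.53) with no overlap between replicates. Single promoters at 50% differed by between -0.25 (Rrm1) and 1.58 (Snupn), so the mean is not a shift shared by all. At 75% the loss was -2.45 ± 0.25 and -2.43 ± 0.09 (5 promoters; difference 0.01, -0.34 to 0.33). At 100% it was -3.67 ± 0.12 and -4.00 ± 0.12 (6 promoters), so that TKO cells lost more by -0.34 (-0.61 to -0.14), again with no overlap. The exact permutation p was 0.1 at 50% and 100%, 0.8 at 25% and 1 at 75%, and the adjusted p over the 4 steps was 0.2 at 50% and 100%. Among promoters whose constructs had 10 or more barcodes in 2 or more replicates of both lines, the difference at 50% was -0.04 (4 promoters) and that at 100% -0.13 (3 promoters). The only promoter of the 6 whose 100% construct was above the inactive range in a line was Nvl, and without the inactive constructs the 100% step is this promoter alone, at -1.04.

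Within promoters, constructs of higher CpG density were more active in both lines. CpG density is given as OE, the observed over expected number of CpGs. Within each replicate, activity and OE were centred on the promoter over 47 constructs and 1 slope was fitted. The slope was 3.87, 4.17 and 4.20 log2 units per unit of OE in the WT replicates and 4.22, 4.35 and 4.38 in the TKO replicates. Every TKO slope was above every WT slope, the difference was 0.24 (exact 90% interval 0.02 to 0.51), and the exact permutation p was 0.1, the smallest possible. Without the constructs that were inactive in both lines the difference was 0.04 over 36 constructs (exact permutation p = 0.7). Over the 51 constructs, which share promoters and libraries, the Spearman correlation of the TKO minus WT difference with OE was 0.04 as deposited. It was 0.31 relative to the 0% construct, over 33 mutants. Activity itself correlated with OE at 0.76 in WT and 0.73 in TKO cells.

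Single constructs were then compared with limma, a linear model with a spread shared across constructs, and Benjamini-Hochberg adjustment over the 51 constructs. At an adjusted p below 0.05, 14 of the 51 (27.5%) differed, 7 higher in TKO (13.7%) and 7 lower (13.7%). The replicates of the lines did not overlap for 20 of the 47 constructs with all 6 values (42.6%), 9 with TKO higher (19.1%) and 11 with TKO lower (23.4%). These calls lay close to the threshold. The smallest adjusted p was 0.018, and 11 of 14 lay above 0.04. Leaving out WT replicate 2, WT replicate 3, TKO replicate 2 or TKO replicate 3 left 0 calls in limma, with 17, 18, 19 and 14 constructs at an unadjusted p below 0.05, and leaving out WT replicate 1 or TKO replicate 1 left 6 and 7. With the replicates centred on their median, 17 constructs were called, 2 higher and 15 lower in TKO. Centring also moves TKO values at the lowest value down against WT, where no scaling of reads could take them. Of the 14 calls, 10 had fewer than 10 barcodes in every TKO replicate, as had 21 of the 51 constructs compared, and the part of barcode number in the calls was not tested. The median difference over the 51 constructs was 0.08, and 39 of them differed by less than 0.5 in either direction.

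Some unmutated promoters were themselves called between the lines. Of the 10 compared, 5 were called, against 27.5% of all constructs. None of these calls was made in limma with weights by barcodes or with replicate number as a block. With the replicates centred on their median, Armc7 (0.38, limma adjusted p = 0.12) and Nvl (0.61, limma adjusted p = 0.12) were not called. Fam165b, Snupn and Usf1 still were. Armc7, which encodes an armadillo repeat protein, had log2 activities of -2.08, -2.37 and -2.13 in WT and -1.64, -1.28 and -1.72 in TKO cells, all TKO values above all WT values (0.64 ± 0.15, SE, limma adjusted p = 0.044). Nvl stood at -0.01, -0.62 and -0.13 in WT and at 0.21, 0.72 and 0.95 in TKO cells, also without overlap (0.88 ± 0.24, SE, limma adjusted p = 0.044). Fam165b had -1.69, -2.24 and -2.50 in WT and -0.66 and -1.25 in the 2 TKO replicates with a value, each of which rests on 3 barcodes (1.19 ± 0.30, SE, limma adjusted p = 0.044).

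Snupn and Usf1 went the other way without mutations. Snupn stood at -0.58, -1.02 and -1.18 in WT and at -1.86, -1.78 and -1.73 in TKO cells, 1.82-fold lower (-0.87 ± 0.16, SE, limma adjusted p = 0.032), with 3 to 5 barcodes in each TKO replicate. Usf1 stood at 0.23, 0.61 and 0.58 in WT and at 0.02, -0.35 and -0.23 in TKO cells, 1.58-fold lower (-0.66 ± 0.15, SE, limma adjusted p = 0.044), with 5 barcodes in each TKO replicate. For both, every TKO value was below every WT value.

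The 5 unmutated promoters with the most barcodes on average differed least. Snrpb2, which encodes a spliceosomal snRNP protein, had 168 to 188 barcodes in WT and 60 to 64 in TKO replicates, and activities of 1.39, 1.13 and 1.21 against 1.23, 0.96 and 1.12. The difference of -0.14 had a 95% interval of -0.43 to 0.14. Napg, a SNAP protein of vesicle fusion, differed by -0.00 (95% interval -0.32 to 0.31), and Cops8, which encodes part of the COP9 signalosome, by 0.03 (-0.48 to 0.54). Nsmce1, a subunit of the SMC5-SMC6 complex, differed by 0.12 (-0.34 to 0.58) and Rrm1 by 0.13 (-0.23 to 0.49). None of these 5 passed the test, and the intervals hold no difference above 0.6 in size. The 0% constructs of Mul1, a mitochondrial ubiquitin ligase, and of Tusc3, an oligosaccharyltransferase subunit, could not be compared. Mul1 was at 0.44, 1.40 and 1.36 in WT cells, and Tusc3 at -1.77 in the single WT replicate with a value.

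Partly mutated promoters held the largest single difference. Nvl with 50% of non-motif CpGs mutated (20 of 37 CpGs left) stood at -1.48, -2.13 and -1.92 in WT and at -0.70, -0.26 and -0.26 in TKO cells, 2.70-fold higher in TKO (1.43 ± 0.21, SE, limma adjusted p = 0.018). All TKO values exceeded all WT values, on 7 to 8 TKO and 10 to 21 WT barcodes. Because the unmutated Nvl promoter was also higher in TKO cells, the difference relative to it was 0.55 (limma adjusted p = 0.16). Fam165b was higher in TKO cells at 25% (0.77 ± 0.20, SE, limma adjusted p = 0.044) and at 50% (0.71 ± 0.20, SE, limma adjusted p = 0.044), without overlap at either step and beside a 0% construct that was higher too. Its 75% construct differed by 0.38 and did not pass the test (limma adjusted p = 0.24). Armc7 with 25% mutated differed by 0.73 with overlapping replicates (limma adjusted p = 0.18).

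All 5 mutants called lower in TKO cells lay within 0.5 of the lowest value there. Rrm1 with 75% mutated stood at -3.90, -3.93 and -3.94 in WT and at -4.32 in every TKO replicate, the lowest value there is, on 12 to 13 TKO barcodes (-0.40 ± 0.08, SE, limma adjusted p = 0.032). Mul1 with 75% mutated behaved alike, at -3.80, -3.90 and -4.13 in WT and at -4.32 in each TKO replicate, on 4 to 5 barcodes (-0.38 ± 0.11, SE, limma adjusted p = 0.045). A TKO value cannot fall further, so these differences are bounded. The lowest value also fixes the spread of these TKO values (SD 0.00027 for Rrm1 and 0 for Mul1). The SE and p of both constructs thus hold almost no spread of TKO replicates. Mul1 with 25% mutated was at -3.39, -3.62 and -3.75 in WT and at -4.27, -3.87 and -4.18 in TKO cells (-0.52 ± 0.15, SE, limma adjusted p = 0.044). Of the fully mutated constructs, those of Fam165b (-0.34, limma adjusted p = 0.044) and Nsmce1 (-0.32, limma adjusted p = 0.044) were lower in TKO cells, each on 3 to 4 TKO barcodes. The other 8 fully mutated constructs lay between -0.30 (Snrpb2) and 0.28 (Mul1) and did not pass the test. They were Usf1 at 0.26, Tusc3 at 0.18, Cops8 at 0.04, Rrm1 at -0.01, Nvl at -0.17 and Napg at -0.25, beside the 2 just named.

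Other partly mutated constructs of Nsmce1, Snrpb2, Usf1, Cops8, Nvl and Tusc3 were not called. Nsmce1 stood at -1.17 ± 0.32, -2.25 ± 0.24 and -3.86 ± 0.35 at 25%, 50% and 75% mutated in WT and at -0.82 ± 0.38, -2.27 ± 0.39 and -3.50 ± 0.39 in TKO cells (SD, n = 3). Snrpb2 stood at 0.72 ± 0.27 and -1.48 ± 0.35 at 25% and 50% in WT and at 1.05 ± 0.35 and -1.61 ± 0.13 in TKO cells. The replicates of the lines overlapped for all 5 of these constructs, and their differences ran from -0.13 to 0.35. Usf1 stood at -2.62 ± 0.17 and -3.68 ± 0.24 at 50% and 75% in WT and at -2.43 ± 0.33 and -3.56 ± 0.31 in TKO cells, again with overlap. Cops8 with 75% mutated was at -0.23, -0.31 and -0.38 in WT and at -0.51, -0.82 and -0.66 in TKO cells, below WT without overlap, and missed the threshold (-0.36 ± 0.11, SE, limma adjusted p = 0.057) on 63 to 74 TKO barcodes. Nvl with 25% and 75% mutated differed by 0.48 (95% interval -0.34 to 1.31) and 0.57 (-0.14 to 1.28), and Tusc3 with 25% and 50% mutated by 0.23 (-0.15 to 0.62) and 0.30 (0.02 to 0.58); none of these passed the test after adjustment.

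Relative to the 0% construct, 4 of 33 mutants were called (12.1%), 2 with a smaller loss in TKO (6.06%) and 2 with a larger loss (6.06%). Mutants of a promoter share the values of its 0% construct on this scale and are not independent. Snupn with 50% mutated kept 16.4% of unmutated activity in WT and 49.1% in TKO cells. Its log2 losses were -2.61 ± 0.05 in WT and -1.03 ± 0.26 in TKO cells (SD, n = 3), a difference of 1.58 ± 0.25 (SE, limma adjusted p = 1.8e-04). The call was also made with each replicate left out in turn. As deposited this construct stood at -3.16, -3.60 and -3.84 in WT and at -2.58, -2.92 and -2.96 in TKO cells, higher in TKO without overlap (0.72 ± 0.20, SE, limma adjusted p = 0.044), so the relative difference joins a higher mutant to a lower 0% construct. Both rest on few TKO barcodes, 7 to 8 for the mutant and 3 to 5 for the 0% construct. The other Snupn mutants had at most 1 TKO value, -2.63 at 25% and -2.91 at 75%, beside WT means of -2.54 and -3.88, and were not tested.

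Usf1 had a smaller relative loss in TKO cells at 50% mutated, with 11.8% of unmutated activity kept in WT and 21.2% in TKO cells (0.85 ± 0.27, SE, limma adjusted p = 0.042). As deposited the 50% construct differed by 0.19 (limma adjusted p = 0.50), while the 0% construct was lower in TKO cells. The relative differences at 75% (0.77, limma adjusted p = 0.10) and 100% (0.83, limma adjusted p = 0.064) did not pass the test. The call at 50% was not made without WT replicate 2 (adjusted p = 0.33 in limma), WT replicate 3 (0.19), TKO replicate 1 (0.14) or TKO replicate 3 (0.14).

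Fam165b and Nvl had larger relative losses in TKO cells when fully mutated. Fam165b kept 31.7% in WT and 10.7% in TKO cells (-1.56 ± 0.31, SE, limma adjusted p = 0.0018), and Nvl 8.92% and 4.32% (-1.04 ± 0.28, SE, limma adjusted p = 0.017). In both, the 0% construct was higher in TKO cells while the 100% construct lay near the lowest value in both lines, at -3.79, -3.85 and -3.77 against -4.12, -4.23 and -4.08 for Fam165b and at -3.72, -3.79 and -3.71 against -3.92, -3.71 and -4.09 for Nvl. The percentages kept are bounded by the lowest value, and the bound is lower where the 0% construct is more active. How much of the larger losses follows from this was not tested. The Fam165b value uses TKO replicates 1 and 2 only, since replicate 3 has no 0% value. The Nvl call was not made without WT replicate 2 (adjusted p = 0.15 in limma) or TKO replicate 3 (0.12).

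For the other promoters no difference in the loss passed the test after adjustment. None of the mutants of Cops8, Napg, Nsmce1, Rrm1, Snrpb2 and Armc7 was called relative to its 0% construct. The smallest p among them was that of Rrm1 with 75% mutated, which sat at the lowest value in TKO cells. It differed by -0.53 (95% interval -1.06 to -0.0009), at p = 0.0496 unadjusted and 0.18 adjusted in limma. Fully mutated Cops8 kept 3.23% of unmutated activity in WT and 3.26% in TKO cells, a log2 difference of 0.01 (95% interval -0.54 to 0.57). Fully mutated Snrpb2 kept 2.95% and 2.65% (-0.16, -0.67 to 0.36), Napg 7.24% and 6.09% (-0.25, -0.79 to 0.29), Nsmce1 12.9% and 9.51% (-0.44, -0.998 to 0.12), and Rrm1 29.9% and 27.2% (-0.14, -0.67 to 0.39). The intervals of Cops8, Snrpb2 and Rrm1 leave room for differences of more than 0.3 in either direction. All these fully mutated constructs were inactive in both lines. The percentages kept therefore lie near the bound set by the lowest value and cannot show a difference in loss beyond it.

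Irregular profiles recurred in both lines. Cops8 with 25% mutated had a lower activity (-1.70 ± 0.20 in WT, -1.80 ± 0.09 in TKO; SD, n = 3) than with 50% mutated (1.10 ± 0.03 and 0.91 ± 0.12), although it had 42 CpGs and the 50% construct 31. The 50% construct, on 275 to 321 WT and 81 to 83 TKO barcodes, kept 111% of unmutated activity in WT and 96.1% in TKO cells. Tusc3 was likewise more active with 75% mutated (-2.27 ± 0.18 in WT, -2.19 ± 0.12 in TKO) than with 25% mutated (-2.91 ± 0.15 and -2.67 ± 0.27). Armc7 with 25% mutated exceeded its 0% construct in both lines, at 162% in WT and 173% in TKO cells. In WT cells Mul1 dropped from 1.07 ± 0.55 unmutated to -3.59 ± 0.18 with 25% mutated, and the mutant was at -4.11 ± 0.21 in TKO cells, lower than in WT as given above. These steps were not tested, and the constructs were named after their values were seen.

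Methylation of the inserted promoters had been measured by bisulfite sequencing in 96 clones of WT cells, so that it could be set beside the comparison of the lines. Values were deposited for 24 of the 51 constructs, as the mean over CpGs of a promoter in 1 to 10 measurements, without coverage. Of these, 9 constructs were methylated at 50% or more and 10 below 10%. The highest were Rrm1 with 50% mutated (82.3%, 2 measurements), Usf1 with 75% mutated (80.04%, 1 measurement) and Nvl with 100% mutated (70.1%, 2 measurements), and the lowest were the unmutated Snrpb2 (0.0489%, 3 measurements), Napg (0.49%, 4 measurements) and Nsmce1 (1.64%, 4 measurements) promoters. Over the 24 constructs the Spearman correlation of methylation was -0.83 with activity in WT and -0.70 with activity in TKO cells, which lack the enzymes. It was -0.01 with the TKO minus WT difference.

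The constructs with high methylation in WT clones were low in both lines. The 9 constructs at 50% or more ranged from -3.98 to -2.65 in WT and from -4.32 to -2.67 in TKO cells, 6 were inactive in WT and 7 in TKO cells, and their differences ran from -0.40 to 0.12. Of the 9, 2 were called, both lower in TKO (the 75% constructs of Rrm1 and Mul1 described above), near the share of 27.5% called among all constructs. Of the 10 constructs below 10% methylation 1 was called, also lower in TKO, and of the 5 between 10% and 50% 0 were called by limma (1, fully mutated Snrpb2, at an unadjusted p below 0.05). None of the 24 was called higher in TKO, or had a higher value at an unadjusted p below 0.05, against 13.7% of all constructs called higher. The 7 constructs called higher all lack a methylation value, and Fam165b has none at any step. This contrast therefore cannot tell whether constructs higher in TKO cells were methylated in WT cells. Among the 9, the highest upper end of a 95% interval was 0.59, for Usf1 with 75% mutated. Rrm1 gives the values of single constructs. With 25% mutated it was methylated at 62.9% (47.5% and 78.3% in its 2 measurements) and stood at -3.85, -4.01 and -3.96 in WT and at -3.90, -3.85 and -3.84 in TKO cells, on 63 to 68 TKO barcodes. The difference was 0.07 with a 95% interval of -0.14 to 0.28. With 50% mutated, at 82.3% methylation, it stood at -3.83, -4.09 and -4.04 in WT and at -4.15, -4.17 and -3.98 in TKO cells (-0.12, -0.38 to 0.15). Mul1 with 50% mutated (69.6%, 1 measurement) stood at -3.82, -4.01 and -4.05 in WT and at -3.73, -3.93 and -3.93 in TKO cells, on 23 to 24 TKO barcodes (0.10, -0.17 to 0.36).

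Napg gave the most complete series of methylation values. Its methylation was 0.49% unmutated, 5.73% at 25%, 34.9% at 50%, 52.004% at 75% and 68.3% at 100% mutated. Its activity was -0.14, -0.91, -1.16, -2.65 and -3.92 in WT and -0.14, -0.99, -0.89, -2.67 and -4.18 in TKO cells in the same order. None of its 5 differences between the lines passed the test, and the one at 75%, the most active of the 9 methylated constructs in WT, was -0.03 (95% interval -0.32 to 0.27).

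Methylated constructs were compared with unmethylated ones within each replicate after centring each promoter. The methylated lay below the unmethylated by -1.76 ± 0.12 in WT and by -1.83 ± 0.10 in TKO cells (SD, n = 3; 9 and 10 constructs). The difference between the lines was -0.07 (exact 90% interval -0.27 to 0.15), with overlapping replicates and an exact permutation p of 0.5.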

How the data were processed

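Samples were grouped by cell line and replicate number as labelled. The activity ratio of each construct and replicate was deposited by the authors, who scaled RNA and DNA barcode reads to the smaller total, kept barcodes with more than 20 DNA reads, added 0.05 and averaged geometrically over barcodes. Activity relative to the 0% construct was deposited as a ratio too and equals the quotient of the deposited activities. The authors deposited methylation of the clones on a fraction scale, which is printed in percent here, G+C content in percent (not used further) and OE as a ratio. Numbers of barcodes and CpGs were used as deposited, and all activities rest on at least 3 barcodes. Per the labels the build is mm9 and reads were processed with Bowtie, whose version is not given in the sources used here.

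Activities were converted to log2. A construct was compared where it had 3 or more barcodes in 2 or more replicates of both lines, and all its deposited values entered. TKO minus WT was tested with limma 3.58.1 in R 4.3.3, without a block, at an adjusted p of 0.05. Means per step used promoters with all 6 values and exact permutation of replicates, which cannot reach 0.05, so they are values without a call. Their exact 90% interval runs from the lowest TKO minus the highest WT to the highest TKO minus the lowest WT replicate. The limma fit was tested on simulated data. Other steps ran in Python 3.11.15 (pandas 2.3.3, numpy 2.4.6, scipy 1.17.1). Numbers of CpGs in mm9 matched the deposited numbers for all 12 unmutated promoters. Constructs named are the 0% and 100% constructs, all calls, the 5 largest differences each way, and 3 constructs from either end of the methylation range; others were named after their values were seen. The members, lists and rules were chosen with earlier results of these data known. The other libraries of the series were not used here.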

Additional observations from a re-analysis of the deposited data

Results flagged for a closer look

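The loss of activity on mutation differed between WT and TKO cells for 4 constructs by limma's test of the difference relative to the 0% construct. The log2 differences were 1.58 for Snupn with 50% mutated, 0.85 for Usf1 with 50% mutated, -1.04 for Nvl with 100% mutated and -1.56 for Fam165b with 100% mutated. In all 4 promoters the 0% construct was itself called different between the lines, in the direction opposite to the relative difference. These 0% constructs had 3 to 11 barcodes in the TKO replicates used, and the part of barcode number in the differences was not tested.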

How the results depend on the processing

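The number of constructs called as deposited (14) was 2 of 27 with at least 10 barcodes, 9 without inactive constructs, 1 with weights by barcodes and 0 to 7 on leaving out a replicate; relative to the 0% construct (4) it was 0 of 13 with at least 10 barcodes and 2 to 8 on leaving out a replicate. Correlations of deviations between WT and TKO replicates were 0.07, 0.06 and 0.41 for same numbers and -0.25 to 0.13 for other numbers. These values do not settle whether replicate numbers pair the samples. A replicate block gave 0 calls in limma as deposited, with 17 at an unadjusted p below 0.05. Relative to the 0% construct it gave 1 call (Snupn with 50% mutated). With at least 10 barcodes, the step differences as deposited became 0.24 (0%), 0.14 (25%), 0.14 (50%) and -0.18 (75%), and relative to the 0% construct -0.044 (50%), -0.31 (75%) and -0.13 (100%). Without inactive constructs they became 0.093 (75%), -0.011 (100%) and, relative, -1.04 (100%), and the difference in slope became 0.043. With replicates centred on their median they became -0.25 (0%), -0.038 (25%), 0.032 (50%), -0.29 (75%) and -0.36 (100%). As a median over promoters, the difference at 75% became 0.23 and the relative one at 100% -0.65. The cause of these moves was not tested. Centring changed the sign of 13 of 51 construct differences, none of them called as deposited or after centring. They include Usf1 with 50% mutated (from 0.19 to -0.07), which was called relative to the 0% construct. That relative scale is not changed by centring. The comparison of methylated with unmethylated constructs moved by less than the SD between replicates under every alternative tried. Since activities were deposited only for 3 or more barcodes, treating fewer as missing changed nothing, and a minimum of 1 barcode added 4 constructs with 1 TKO value. The median SD between replicates was 0.18 in WT and 0.19 in TKO cells, although TKO values rest on fewer barcodes. The labels do not tell if replicates read the same integrated barcodes, in which case this SD leaves out the spread between barcodes. It also includes constructs at the lowest value, such as Mul1 with 75% mutated (SD 0 in TKO cells). Similar SDs are thus no sign of equal precision.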
